A study of Mus musculus with 8 samples.

Results

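The small leucine-rich proteoglycans are secreted matrix proteins, and 8 of their genes were followed here: Dcn, Bgn and Aspn of class I, Lum, Fmod, Prelp and Omd of class II, and Ogn of class III. They were taken as every probe set that the platform annotation gives to 1 of these symbols alone, which found 19 of the 45101 probe sets on the array and 8 of 18194 named genes. All 8 genes lay above the filter on low signals, as did 13174 genes in all. RNA of mouse, labelled as brain cerebral cortex, had been hybridised to 8 arrays, with 2 arrays in each of 4 groups. One group received FGF2 and U0126, another FGF2 and SB202190, another FGF2 alone, and the control group vehicle. FGF2 is a growth factor that acts on astrocytes, U0126 blocks the MEK kinases upstream of ERK, and SB202190 blocks the p38 kinases. No group had an inhibitor without FGF2. The sources used here do not give strain, age, dose, time, or the origin of the replicates, so all p-values measure the spread between arrays that may be technical repeats.

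Proteins of this family have a core of leucine-rich repeats that binds collagen fibrils and limits how thick they grow, and most carry a chondroitin, dermatan or keratan sulfate chain. Several also hold growth factors, above all TGF-beta, in the matrix. In the brain they are known mainly from the meninges and the walls of vessels, where fibroblasts make them together with fibrillar collagens.

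Signals are the deposited values on their linear scale, where each array had been brought to a common trimmed mean of 150.001, and the median signal per array was 22.3 to 27.8. Over the genes tested r was 0.980 to 0.984 between replicates and 0.947 to 0.981 between groups. The series' title speaks of astroglia, and all 17 mature astrocyte markers were above the filter on low signals. Of 10 neuron markers 5 were above it, with Stmn2 at 1338 to 1970 and Tubb3 at 50.4 to 169.8, while Snap25, Rbfox3, Slc17a7, Gad2 and Nefl were below it. Of 12 microglia markers 6 were above it, with Cd68 at 113 to 306, while Aif1, Itgam, Cx3cr1, C1qa, C1qc and P2ry12 were below it. Of 24 meningeal fibroblast markers 21 were above the filter, with Col1a2 at 921 to 2391 and Foxc1 at 291 to 465, while Slc6a13, Slc22a6 and Cdh1 were below it. In the group with FGF2 and SB202190, replicate 2 has another type of treatment step in its label than the other 7 arrays, with the same agents, and was kept.

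Most of these genes stand next to each other in the genome, so their order and the bases before their starts are given first. In the mouse annotation of RefSeq (GRCm38.p6), Dcn and Lum lie on chromosome 10 beside Kera and Epyc, genes of the same family. Aspn, Omd and Ogn follow Ecm2 on chromosome 13, Prelp and Fmod follow Optc on chromosome 1, and Bgn stands alone on chromosome X. RefSeq promoter windows, from 250 bases before to 50 after the start, were matched for 6 of the 8 genes, all but Dcn and Lum. The probe set that represents Bgn was not called with FGF2, while a second one was called lower. The windows of the chromosome 13 neighbours, which FGF2 lowered, and of Bgn are printed on their own strand. They are Aspn at chr13:49544193-49544492, Omd at chr13:49582212-49582511, Ogn at chr13:49607765-49608064 and Bgn at chrX:73483351-73483650, all on the plus strand, with matches to the motifs searched in capitals.
Aspn: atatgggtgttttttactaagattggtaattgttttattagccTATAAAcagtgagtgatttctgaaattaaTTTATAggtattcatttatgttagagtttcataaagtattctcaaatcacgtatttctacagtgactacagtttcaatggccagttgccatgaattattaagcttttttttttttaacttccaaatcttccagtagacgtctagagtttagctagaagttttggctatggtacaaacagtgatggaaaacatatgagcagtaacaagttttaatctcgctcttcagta
Omd: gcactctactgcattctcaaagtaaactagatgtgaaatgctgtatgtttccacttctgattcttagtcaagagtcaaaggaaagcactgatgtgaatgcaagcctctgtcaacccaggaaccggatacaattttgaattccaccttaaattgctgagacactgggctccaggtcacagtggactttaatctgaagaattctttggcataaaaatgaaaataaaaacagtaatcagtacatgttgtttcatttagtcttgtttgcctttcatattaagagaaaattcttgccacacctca
Ogn: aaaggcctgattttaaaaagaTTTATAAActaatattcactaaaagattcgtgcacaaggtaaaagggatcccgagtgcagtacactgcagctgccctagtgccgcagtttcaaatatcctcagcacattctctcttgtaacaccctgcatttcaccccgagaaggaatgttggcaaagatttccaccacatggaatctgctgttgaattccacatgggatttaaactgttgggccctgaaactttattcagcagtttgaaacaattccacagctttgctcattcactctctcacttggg
Bgn: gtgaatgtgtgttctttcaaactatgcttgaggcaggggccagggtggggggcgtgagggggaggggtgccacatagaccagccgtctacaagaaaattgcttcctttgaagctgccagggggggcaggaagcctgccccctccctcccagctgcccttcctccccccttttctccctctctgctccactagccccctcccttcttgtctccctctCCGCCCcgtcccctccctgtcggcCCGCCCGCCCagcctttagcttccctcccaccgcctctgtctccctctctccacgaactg

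The motifs searched on both strands were TATAAA for the TATA box, TGANTCA for AP-1, GGGCGG for the GC box and CCGGAA for ETS factors. Aspn held TATAAA at -207 on its own strand and at -178 on the opposite one, counted from the start of the gene. Ogn held it at -227 and, overlapping on the opposite strand, at -229. Of all 32851 windows 13.6% hold TATAAA. Bgn held GGGCGG on the opposite strand at -34, -10 and -6, of which the pair nearest the start overlap, and 35.7% of windows hold it. No window of these 6 genes held TGANTCA, which 7.81% of windows hold, or CCGGAA, which 14.9% hold. Omd, Fmod and Prelp held none of the 4 motifs, which says only that these letters are not in their windows. The share of G and C was 31% in Aspn, 37.7% in Omd, 42.3% in Ogn, 51% in Fmod, 55.3% in Prelp and 63.7% in Bgn, beside a median of 52.7% over all windows.

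The comparison of FGF2 with vehicle asked how the growth factor alone moves these genes. FGF2 lowered 6 of the 8, namely Dcn, Aspn, Fmod, Prelp, Omd and Ogn, and Lum and Bgn were not called. The steepest falls were those of Prelp and Omd, to 24.6% and 23.6% of the vehicle signal. None was called higher. Over all genes tested 37.9% were called, 19% lower and 18.9% higher, at an adjusted p under 0.05 by limma with Benjamini-Hochberg adjustment. Without normalization beyond the deposited scaling the split was as even, at 2445 higher and 2550 lower, and 6 of the 8 genes were lower. With arrays centred on their median, 4018 genes were higher and 1479 lower, beside 2489 and 2502 with quantile normalization. The same 6 of the 8 genes were lower. The median log2 change was -1.28 over the 8 genes and -0.00 over all genes. The arrays of the groups lay apart for the same 6 genes, as they did for 69.1% of all genes. In RNA of mixed cells, fewer cells of a type and less RNA per cell cannot be told apart.

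Decorin, the dermatan sulfate proteoglycan that binds type I collagen and TGF-beta, is encoded by Dcn. Its signals were 1553 and 1789 with FGF2, against 2728 and 3069.7 with vehicle. The groups did not overlap, and the log2 change was -0.86 ± 0.07 (SE; adjusted p = 6.82e-07). A second Dcn probe set, 1441506_at, had 5.10 and 10.8 with FGF2, against 16.7 and 1.16 with vehicle, at the 9.91th percentile of all probe sets, so it carries no usable level. With the mean of both Dcn probe sets the fall was no longer called (adjusted p = 0.749).

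Biglycan, encoded by Bgn, is the closest relative of decorin and can signal through Toll-like receptors once it is released from the matrix. Bgn signals were 840 and 986 with FGF2, against 968 and 931 with vehicle. These ranges overlap, and the log2 change was -0.08 ± 0.10 (adjusted p = 0.54), with a 95% confidence interval of -0.29 to 0.13. A second probe set of Bgn gave a called fall. With FGF2 1448323_a_at had 614 and 673, against 828 and 777 with vehicle, a log2 change of -0.35 ± 0.09 in the fit over all probe sets (adjusted p = 0.0183). The third, 1437889_x_at, had 702 and 760 with FGF2, against 947 and 770 with vehicle. Its arrays were apart, but its change of -0.27 ± 0.10 was not called in that fit (adjusted p = 0.102).

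Asporin, encoded by Aspn, lacks the sulfated chain of its class and restrains TGF-beta. It had the lowest signals among the 8 probe sets that represent the genes, 11.4 and 17.2 with FGF2, against 63.1 and 45.0 with vehicle. The groups were apart, with a log2 change of -1.66 ± 0.38 (adjusted p = 0.0036). The standard error was the widest of the 8 genes. The other Aspn probe set, 1448421_s_at, was dim as well, with 9.79 and 10.6 with FGF2, against 49.9 and 39.0 with vehicle, and was called lower by -1.80 ± 0.55.

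Lumican, encoded by Lum, carries keratan sulfate in the cornea and keeps its collagen fibrils evenly spaced. Lum signals were 569 and 613 with FGF2, against 549 and 572 with vehicle. They overlap, and the log2 change was 0.05 ± 0.10 (adjusted p = 0.74), with a 95% confidence interval of -0.16 to 0.26. A fall of the size seen in Dcn lies outside this interval.

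Fibromodulin, encoded by Fmod, binds collagen fibrils and takes part in where lysyl oxidase crosslinks them. Fmod had 1292 and 1389 with FGF2, against 2735 and 2489.6 with vehicle. Both FGF2 arrays lay far below both vehicle arrays, and the log2 change was -1.01 ± 0.07 (adjusted p = 2.26e-07). All 6 Fmod probe sets were called lower, by -0.96 to -1.60. The names of 5 of these 6 end in _x_at, a mark of probes that can bind other transcripts too. The remaining one, 1415939_at, had 514 and 493 with FGF2, against 997 and 988 with vehicle.

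Prelp encodes a protein with a basic stretch that binds heparin and anchors basement membranes to connective tissue. Prelp signals were 567 and 499 with FGF2, against 2217 and 2110.4 with vehicle. This was the largest fall of the 8 genes in log2 units, -2.07 ± 0.08 (adjusted p = 2.3e-09), and the other Prelp probe set gave -1.74 ± 0.08. Omd, osteomodulin, is a keratan sulfate proteoglycan best known from bone. It had 69.6 and 68.3 with FGF2, against 298 and 286 with vehicle, and the replicates of each group differed by little beside the gap between groups. Its log2 change was -2.03 ± 0.15 (adjusted p = 3.53e-07).

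Osteoglycin, encoded by Ogn and also named mimecan, was first isolated from bone and is found in many connective tissues. Ogn had 734 and 659.7 with FGF2, against 1977 and 1961 with vehicle. The arrays were apart, and the log2 change was -1.55 ± 0.08 (adjusted p = 2.23e-08). A second probe set, 1419663_at, had 610.2 and 620.3 with FGF2, against 1655 and 1783 with vehicle, a change of -1.51 ± 0.07. Over all 19 probe sets of the family 15 were called lower with FGF2 in the fit over every probe set and 0 higher, where 7.92% of all probe sets were called lower. Shares over all probe sets, here and below, take in dim ones under the filter. Of the genes tested 19% were called lower.

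**Figure D1:**
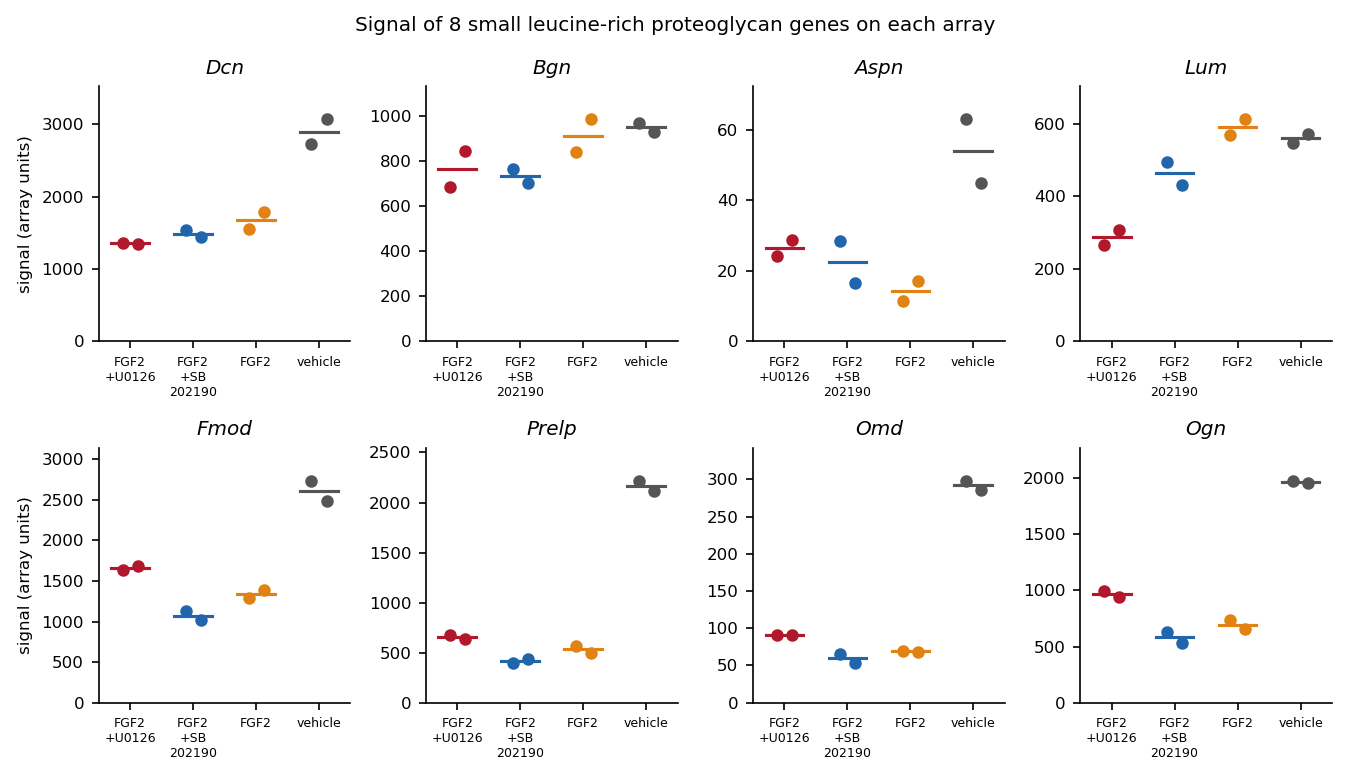
Signal (linear scale, each panel from 0) of the probe set that represents each of the 8 genes, by group, with a point for each of the 2 arrays and a line at their mean. The vehicle arrays are the highest in Dcn, Aspn, Fmod, Prelp, Omd and Ogn, while Lum is lowest with FGF2 and U0126, at 267 and 306.

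**Figure D2:**
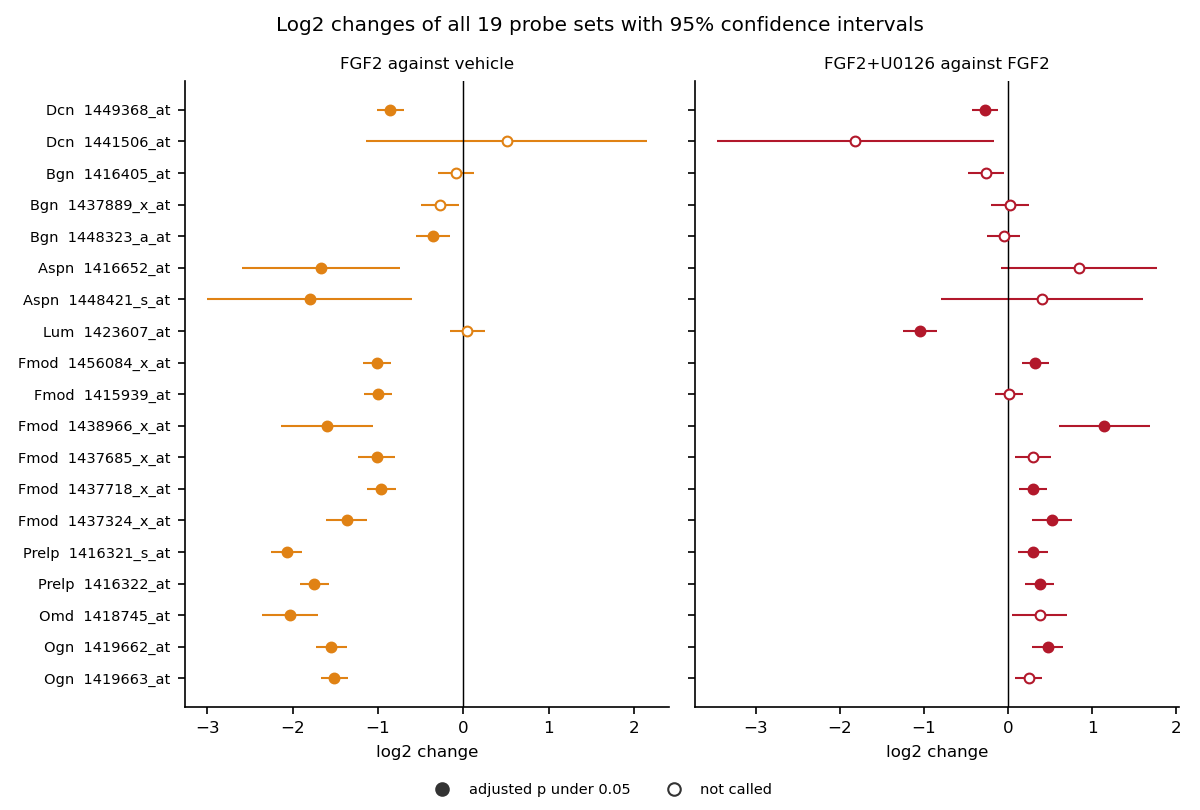
Log2 change (horizontal axis, with 95% confidence intervals) of all 19 probe sets in the fit over every probe set, for FGF2 against vehicle and FGF2 with U0126 against FGF2, filled where the adjusted p was under 0.05. With FGF2 15 of 19 lie below 0 and are called, and with U0126 the Fmod probe sets spread between 0.01 and 1.14.

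With U0126 added, the question was how these levels depend on MEK when FGF2 is present. The genes split. Ogn, Fmod and Prelp were higher with U0126 than with FGF2 alone, and Lum and Dcn were lower, while Bgn, Omd and Aspn were not called. Of all genes 22.1% were called, 11.6% higher and 10.5% lower, and the arrays were apart for 7 of the 8 genes, beside 60.9% of all genes. The median log2 change was 0.31 over the 8 genes and 0.03 over all. The arrays of FGF2 with U0126 also had the lowest ratio of 3' to 5' Actb probe sets, a sign of RNA quality, at 1.28 and 1.26 beside 1.31 to 1.41 on the others. Its part in these results was not tested.

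Lum moved most. Its signals were 267 and 306 with FGF2 and U0126, against 569 and 613 with FGF2. The groups were far apart, with a log2 change of -1.04 ± 0.10 (adjusted p = 7.26e-06). This call held in all 22 alternative settings and left-out arrays that were run. The level also lay below vehicle, by -0.997 ± 0.10 (adjusted p = 4.91e-06), so Lum was at 51.1% of its vehicle signal with U0126 and at 105% with FGF2 alone.

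Dcn, which precedes Lum on chromosome 10, had 1365 and 1352 with FGF2 and U0126, against 1553 and 1789 with FGF2. The log2 change was -0.28 ± 0.07 (adjusted p = 0.0114), in the same direction as the fall with FGF2. Leaving out replicate 2 of FGF2 ended the call, at -0.18, as did leaving out replicate 2 of FGF2 with U0126 (adjusted p = 0.15 and 0.0661, over a range of 0.00824 to 0.15 among the alternatives). Bgn had 686 and 845 with U0126, against 840 and 986 with FGF2, and the arrays overlapped. Its change of -0.26 ± 0.10 was not called (adjusted p = 0.0691), but it was called without replicate 1 of FGF2 or without replicate 2 of FGF2 with U0126, at -0.38 and -0.40. The other Bgn probe sets overlapped between these groups, with changes of 0.02 ± 0.10 for 1437889_x_at and -0.05 ± 0.09 for 1448323_a_at.

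Among the genes that FGF2 had lowered, Ogn had 992 and 941 with FGF2 and U0126, against 734 and 659.7 with FGF2. The arrays were apart, and the change was 0.47 ± 0.08 (adjusted p = 0.00136). With 744 and 720.3, against 610.2 and 620.3 with FGF2, the second Ogn probe set gave 0.24 ± 0.07, which was not called over all probe sets (adjusted p = 0.0648). The rise brought Ogn to 49.1% of vehicle, beside 35.4% with FGF2 alone, and it stayed below vehicle by -1.07 ± 0.08.

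Prelp had 673 and 637 with U0126, against 567 and 499 with FGF2, a change of 0.30 ± 0.08 (adjusted p = 0.0216). This call did not hold without replicate 2 of FGF2, at 0.21, or without replicate 1 of FGF2 with U0126, at 0.24. The second Prelp probe set was called as well, at 0.38 ± 0.08. Prelp reached 30.3% of vehicle with U0126, beside 24.6% with FGF2 alone.

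Fmod had 1630.0 and 1689.9 with U0126, against 1292 and 1389 with FGF2. The change of 0.32 ± 0.07 (adjusted p = 0.00575) was lost without replicate 1 of FGF2 (adjusted p = 0.0664). Its probe sets disagreed. While 1438966_x_at had a change of 1.14 ± 0.25, the probe set without the _x_at mark had 515 and 504.6 with U0126, against 514 and 493 with FGF2, which overlap (0.01 ± 0.07, adjusted p = 0.96). The rise of Fmod with U0126 was called in 4 of the 5 probe sets with that mark and not in the probe set without it.

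Omd had 90.6 and 91.3 with FGF2 and U0126, against 69.6 and 68.3 with FGF2. Both U0126 arrays were above both FGF2 arrays, and the change of 0.37 ± 0.15 was not called (adjusted p = 0.0975). Aspn had 24.3 and 28.7 with U0126, against 11.4 and 17.2 with FGF2, and its change of 0.84 ± 0.38 was not called either (adjusted p = 0.138). Over the 19 probe sets 7 were called higher and 2 lower with U0126, where 3.88% and 4.19% of all probe sets were, and 11.6% and 10.5% of genes tested. Those called higher were all of Fmod, Prelp and Ogn.

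Adding SB202190 to FGF2 asked the same of p38. Fmod and Prelp were called lower than with FGF2 alone and the other 6 genes were not called. Of all genes 3.02% were called, 1.7% lower and 1.32% higher. The arrays of the groups were apart for 7 of the 8 genes, beside 48.9% of all genes. The median log2 change was -0.29 over the 8 genes and -0.00 over all genes.

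Prelp had 396 and 437 with FGF2 and SB202190, against 567 and 499 with FGF2, a change of -0.35 ± 0.08 (adjusted p = 0.0407). Fmod had 1125 and 1018 with SB202190, against 1292 and 1389 with FGF2, a change of -0.33 ± 0.07 (adjusted p = 0.0287). In both genes the groups were apart. These calls were fragile. That of Fmod was lost in 9 of 22 alternatives and that of Prelp in 11, each without either FGF2 array and without replicate 2 of FGF2 with SB202190, with changes of -0.26 to -0.38 for Fmod and -0.26 to -0.44 for Prelp. Prelp lost it also without replicate 1 of FGF2 with SB202190 and without either vehicle array.

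Lum had 495 and 431 with SB202190, against 569 and 613 with FGF2. Its change of -0.35 ± 0.10, as large as that of Prelp, was not called (adjusted p = 0.0681). Ogn had 631 and 533 with SB202190, against 734 and 659.7 with FGF2, and its change of -0.26 ± 0.08 was not called (adjusted p = 0.116). The second Ogn probe set overlapped between the groups, with 564 and 636 against 610.2 and 620.3 with FGF2.

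Bgn had 763 and 704 with SB202190, against 840 and 986 with FGF2, a change of -0.32 ± 0.10 that was not called (adjusted p = 0.099). In the fit over every probe set 1448323_a_at of Bgn was the only one of the 19 called, and those of Fmod and Prelp were not. The Bgn probe set had 501 and 425 with SB202190, against 614 and 673 with FGF2, a change of -0.47 ± 0.09 (adjusted p = 0.0362), where 0.39% of all probe sets were called lower. Dcn had 1535 and 1438 with SB202190 and Omd had 65.9 and 53.6, and neither was called, at -0.15 ± 0.07 (adjusted p = 0.294) and -0.21 ± 0.15 (adjusted p = 0.535). Aspn was the only gene with overlapping arrays, at 28.6 and 16.5 with SB202190 against 11.4 and 17.2 with FGF2.

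**Figure D3:**
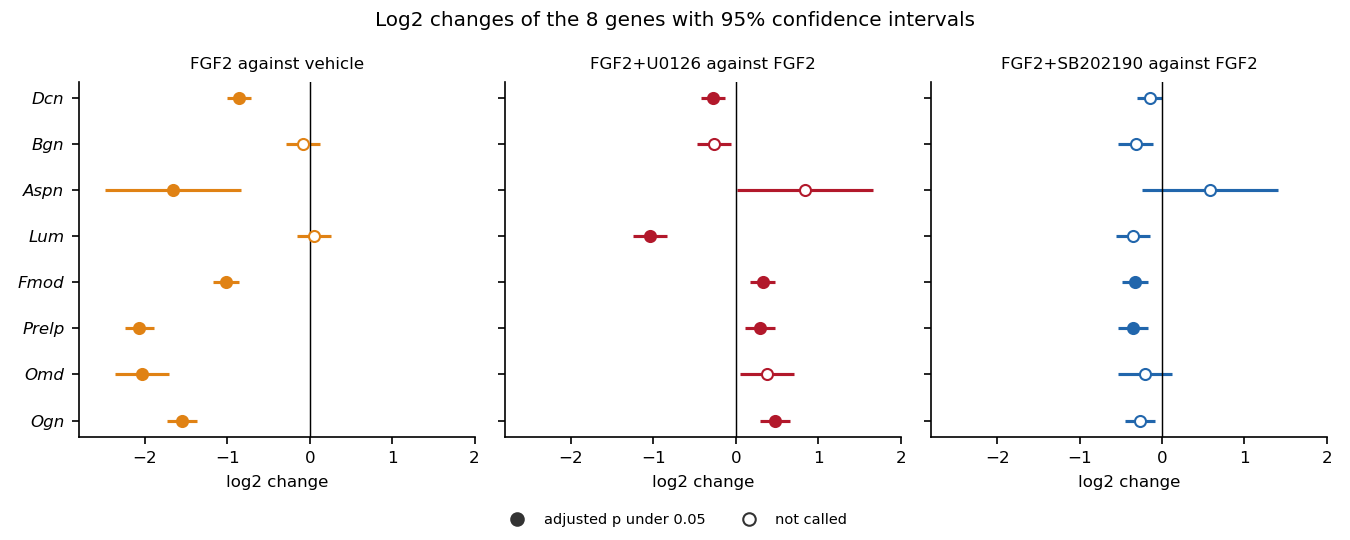
Log2 change of each of the 8 genes (horizontal axis, points with 95% confidence intervals, filled where the adjusted p was under 0.05) for FGF2 against vehicle, FGF2 with U0126 against FGF2 and FGF2 with SB202190 against FGF2. Prelp and Omd lie at -2.07 and -2.03 in the first panel, and Lum stands alone at -1.04 in the second.

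Set against vehicle, with arrays that these comparisons share with those above, the inhibitor groups gave lower levels for nearly all of the family. With FGF2 and U0126 7 of 8 genes were lower than with vehicle and 0 higher, where 31.7% of all genes were called, 15% lower and 16.7% higher. Aspn was the gene not called, at -0.82 ± 0.38 (adjusted p = 0.124). With FGF2 and SB202190 all 8 were lower, where 35.8% of all genes were called, 17.8% lower and 18% higher. Of the 19 probe sets 14 and 17 were lower, beside 6.19% and 7.36% of all probe sets. Lum and Bgn, not called with FGF2 alone at the probe set that represents each, were among the genes called lower. Bgn had a change of -0.35 ± 0.10 with U0126 (adjusted p = 0.0146) and -0.40 ± 0.10 with SB202190 (adjusted p = 0.0052), and Lum had -0.30 ± 0.10 with SB202190 (adjusted p = 0.0243). When arrays were centred on their median in place of quantile normalization these were -0.11, -0.16 and -0.07 and not called, where that centring put the median change of all genes at 0.19 with U0126 and 0.18 with SB202190, beside 0.01 in each with quantile normalization. Of all genes it called 4030 higher and 1014 lower with U0126, beside 2196 and 1981, and 4059 higher and 1437 lower with SB202190, beside 2377 and 2345. Without normalization 7 of 8 genes were lower with U0126 and all 8 with SB202190, with medians of all genes at -0.02 and -0.03. Without the intensity trend of the fit these changes of Bgn and Lum were not called (adjusted p = 0.108, 0.067 and 0.0961). Bgn also lost its call against vehicle without replicate 1 of vehicle or of FGF2 with U0126 in the first case, and without replicate 2 of FGF2 with SB202190 in the second. Lum with SB202190 lost it without either vehicle array or replicate 2 of FGF2 with SB202190, and so did Aspn, whose change was -1.08 ± 0.38 (adjusted p = 0.0415).

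Between the inhibitors, Ogn, Fmod, Prelp and Omd were higher with U0126 than with SB202190, Lum was lower, and Dcn, Bgn and Aspn were not called. Of all genes 22.7% were called, 12.4% higher and 10.3% lower. Over the 19 probe sets 12 were higher and 1 lower, where 4.16% and 4.12% of all probe sets were. Among them were the other Bgn probe sets, 1437889_x_at at 0.42 ± 0.10 (adjusted p = 0.0246) and 1448323_a_at at 0.42 ± 0.09 (adjusted p = 0.0128), while the one that represents Bgn had 0.06 ± 0.10. Ogn differed by 0.74 ± 0.08 (adjusted p = 4.33e-05), Fmod by 0.65 ± 0.07 and Prelp by 0.65 ± 0.08. Lum differed by -0.69 ± 0.10 (adjusted p = 0.000203). Omd differed by 0.58 ± 0.15 (adjusted p = 0.0138), a call lost without replicate 2 of either group. Lum thus went the other way from Fmod, Prelp and Omd, the other class II genes followed here. The calls of Ogn, Fmod, Prelp and Lum held in each of the 22 alternatives run.

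The order of the groups differed from gene to gene. In Fmod and Prelp the mean signal was highest with vehicle, then with FGF2 and U0126, then with FGF2 alone, then with FGF2 and SB202190, and each neighbour in that order was called apart. Ogn and Omd had the same order, but in Ogn the step between FGF2 and FGF2 with SB202190 was not called, nor in Omd were the steps on either side of FGF2. The Fmod probe set without the _x_at mark did not show the step between U0126 and FGF2 (0.01 ± 0.07). That step lost its call in 3 of 22 alternatives in Fmod and in 3 in Prelp. The step from FGF2 to SB202190 lost it in 9 and 11. In Dcn the order was vehicle, FGF2, FGF2 with SB202190 and FGF2 with U0126, where only the first step was called. In Aspn FGF2 alone was lowest, and no neighbouring pair was called. The other Aspn probe set, also dim, was instead lowest with FGF2 and SB202190, at 9.75 and 6.03 against 9.79 and 10.6 with FGF2, which was not called. In Lum FGF2 was highest and was not called apart from vehicle, followed by FGF2 with SB202190 and then FGF2 with U0126. The level with SB202190 was not called below FGF2, only below vehicle, and that with U0126 was called below all the others. In Bgn vehicle was highest, then FGF2 alone, then FGF2 with U0126, and FGF2 with SB202190 was lowest, but no neighbours were called apart.

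Across the 8 arrays Ogn, Fmod, Prelp and Omd correlated with each other with r of 0.960 to 0.989, a description over arrays that share 4 treatments. Lum correlated with Aspn at 0.011, with Fmod at 0.12 and with Ogn at 0.135. Among all genes whose group means ranged over at least 1 log2 unit, those most like each member were taken by Pearson r over the 8 arrays. For Lum these were Mctp2 (r = 0.971), Tgfbi (0.967), which encodes a matrix protein induced by TGF-beta, and Csrp2 (0.964). For Dcn they were Tmem86a (0.997), the secreted Dkk3 (0.986) and the chemokine Cxcl12 (0.984). For Fmod they were Slc38a2 (0.993), the lipoprotein lipase gene Lpl (0.992) and Tgfb2 (0.992). For Ogn they were Slc38a1, Add3 and S1pr3 (0.995, 0.995 and 0.994), for Prelp St8sia2, Rgcc and Bcar3 (0.997, 0.995 and 0.993), and for Omd Ppp1r3c, Plcd4 and Arhgef4 (0.998, 0.998 and 0.996). Aspn and Bgn had less close matches, led by Sim2 (0.981) and C1qtnf1 (0.919).

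Neighbours in the genome did not always move together. On chromosome 13 all 4 genes of the row, Ecm2, Aspn, Omd and Ogn, were called lower with FGF2, where 19% of all genes were. Ecm2, a matrix gene with leucine-rich repeats, had 19.9 and 6.58 with FGF2, against 51.5 and 39.9 with vehicle, a change of -1.68 ± 0.53 (adjusted p = 0.0243). The call of Ecm2 was lost in 6 of 21 alternatives, among them those without either vehicle array or without replicate 2 of FGF2, over adjusted p of 0.00986 to 0.217. The genes on either side of the row were not called, Cenpp at -0.29 ± 0.22 and Nol8 at 0.09 ± 0.15.

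On chromosome 10 FGF2 lowered Dcn and not Lum, and Epyc, the cartilage proteoglycan epiphycan, was not called at 0.43 ± 0.21 (adjusted p = 0.142). With U0126 all 3 tested genes of that row were lower than with FGF2 alone, where 10.5% of all genes were. The call of Dcn, at -0.28 ± 0.07, was lost in 4 of 22 alternatives. Epyc had 49.9 and 48.2 with FGF2 and U0126, against 106.6 and 157.7 with FGF2, a change of -1.35 ± 0.21 (adjusted p = 0.000628), and Kera was below the filter. On chromosome 1 FGF2 lowered Prelp and Fmod, while Optc was not called at 1.17 ± 0.84. Beyond them Btg2, an antiproliferative gene, was lower too, at -0.49 ± 0.10 (adjusted p = 0.00142).

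**Figure D4:**
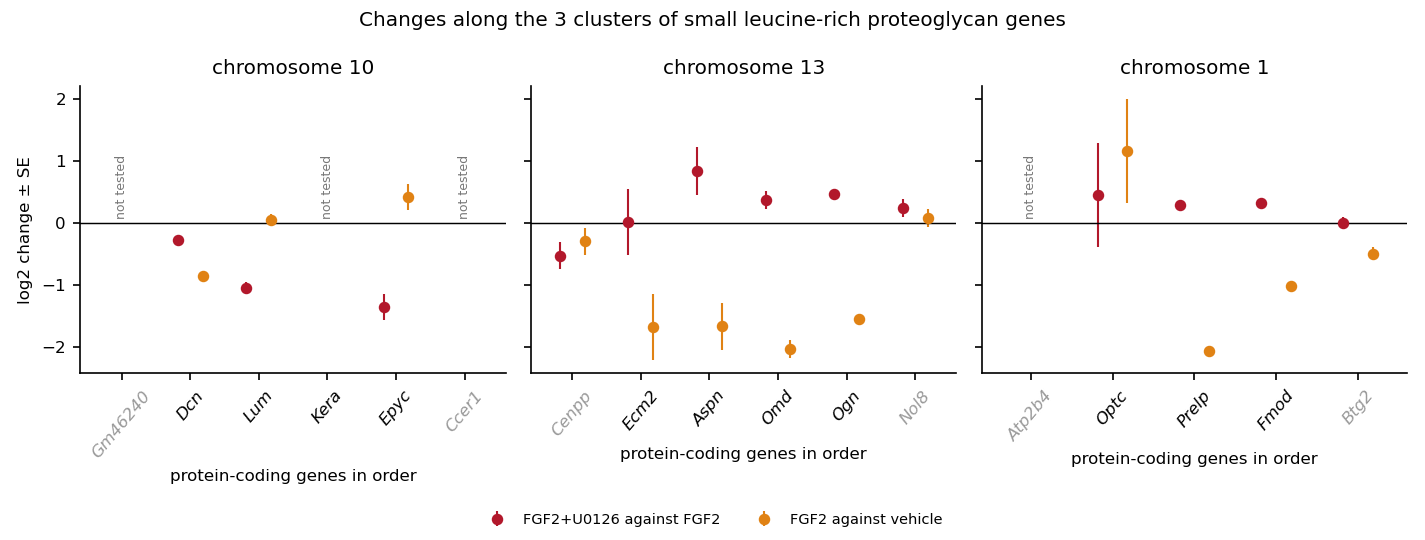
Log2 change ± SE (vertical axis) of the genes of the 3 family clusters in their order on the chromosome, with the flanking genes in grey, for FGF2 with U0126 against FGF2 (left point of each pair) and FGF2 against vehicle (right point). The FGF2 points of Ecm2, Aspn, Omd and Ogn lie between -1.55 and -2.03 and the U0126 points of Dcn, Lum and Epyc between -0.28 and -1.35.

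Around the core proteins, the genes that build the sulfated chains were called higher with FGF2 or not called, where 37.9% of all genes were called. Of 18 tested genes of chondroitin and dermatan sulfate synthesis 7 were higher, 0 lower and 11 not called, with a median log2 change of 0.17, where 18.9% of all genes were higher and 19% lower. These counts rest on single arrays. Leaving out replicate 1 of vehicle or replicate 2 of FGF2 gave 4 higher, leaving out replicate 1 of FGF2 gave 3 higher and 2 lower, and with every probe set 4 were higher. The polymerase gene Chsy1 rose by 1.01 ± 0.09, the linker enzyme gene B3galt6 by 0.97 ± 0.24 (not called without replicate 1 of vehicle) and the dermatan sulfotransferase gene Chst14 by 0.59 ± 0.10. With U0126 4 of the 18 were lower than with FGF2 and 2 higher, beside 10.5% and 11.6% of all genes. Among the lower ones were Chsy1 at -0.43 ± 0.09 and the sulfotransferase gene Chst7 at -1.02 ± 0.25. Without any 1 of the arrays of these groups 1 to 2 were lower and 0 to 1 higher, and Chsy1 and Chst7 both lost their call without replicate 2 of FGF2. Of 8 keratan sulfate genes 2 rose with FGF2, the sialyltransferase genes St3gal3 by 0.63 ± 0.13 and St3gal2 by 0.47 ± 0.10, while 0 fell and 6 were not called, and with median centring 4 rose. The keratan sulfate sulfotransferase gene Chst2 was lower with either inhibitor, at -0.62 ± 0.08 with U0126 and -0.37 ± 0.08 with SB202190, where the call was lost without any 1 of the arrays of FGF2 or of FGF2 with SB202190.

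The fibrillar collagens, to which these proteins bind, fell with FGF2 in 5 of 9 cases and rose in 2, with a median of -0.55, where 19% of all genes fell and 18.9% rose. Col1a1 had a change of -1.40 ± 0.13, Col1a2 of -1.15 ± 0.08, Col11a1 of -0.96 ± 0.13, Col3a1 of -0.73 ± 0.08 and Col5a1 of -0.55 ± 0.10. Col2a1, the cartilage collagen, rose by 2.07 ± 0.39 and Col5a3 by 0.78 ± 0.17, while Col5a2 and Col27a1 were not called. With U0126 Col11a1 was higher than with FGF2 alone, by 1.20 ± 0.13, and Col5a2 was lower, at -0.37 ± 0.08, as it was with SB202190, at -0.41 ± 0.08, and both calls of Col5a2 were lost without replicate 2 of FGF2, the second also without replicate 2 of FGF2 with SB202190. Of 16 genes that process or crosslink collagen 5 rose and 4 fell with FGF2. The propeptidase enhancer Pcolce fell by 1.24 ± 0.08, and the lysyl hydroxylase gene Plod3 and the lysyl oxidase relative Loxl3 rose by 0.59 ± 0.08 and 0.63 ± 0.10. With SB202190 4 of the 16 were lower than with FGF2, Plod2, Serpinh1, Loxl3 and Lox at -0.53, -0.31, -0.55 and -0.46, where 1.7% of all genes were. Of these 4 calls 0 held without replicate 1 of FGF2 or replicate 2 of FGF2 with SB202190, and 1 held without replicate 2 of FGF2.

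Of 8 proteases known to cut these proteins 1 rose and 3 fell with FGF2, where 18.9% of all genes rose and 19% fell. Without replicate 2 of vehicle or of FGF2 only Mmp3 and Mmp2 were called, 1 in each direction. Mmp3, stromelysin, rose by 0.86 ± 0.07, was lower with U0126 than with FGF2 at -0.85 ± 0.07, and was higher with SB202190 at 0.38 ± 0.07, a call lost without either FGF2 array or replicate 2 of FGF2 with SB202190. The gelatinase gene Mmp2 fell with FGF2 by 1.00 ± 0.10, Adamts5 fell by 0.67 ± 0.17 and Adamts1 fell by 0.41 ± 0.12. Of 19 partners and receptors 4 rose and 7 fell, or 3 and 4 without replicate 1 of FGF2. Among the TGF-beta genes, whose proteins decorin and its relatives can bind, Tgfb1 rose by 1.78 ± 0.26 and Tgfb2 fell by 1.20 ± 0.12 and Tgfb3 fell by 0.90 ± 0.11. The coreceptor gene Tgfbr3 fell by 1.01 ± 0.12. With U0126 Tgfb1 and the receptor gene Tgfbr1 were lower than with FGF2, at -1.29 ± 0.26 and -0.65 ± 0.13. In all, 6 of the 19 were lower with U0126 and 0 higher, beside 10.5% and 11.6% of all genes.

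Markers of cell types moved with the same treatments, and their counts with FGF2 stand beside 19% of all genes lower and 18.9% higher. Of 21 tested meningeal fibroblast markers 12 fell and 2 rose with FGF2, with a median of -0.50, and the summed signal of the list was 15521 and 18401 with FGF2, against 21263 and 20029 with vehicle. The groups did not overlap. Within the list Islr fell by 0.97 ± 0.07 and Foxc1 fell by 0.39 ± 0.09, Twist1 and Mgp rose by 0.97 ± 0.12 and 0.61 ± 0.12, and Igfbp2, Ptgds and Pdgfra were not called. Of 10 pericyte and smooth muscle markers 5 fell and 0 rose (2 and 0 without replicate 1 of vehicle, 2 and 1 with median centring), with sums of 13046 and 14534 with FGF2, against 15103 and 14378 with vehicle, which overlap. Kcnj8, Abcc9, Anpep, Higd1b and Myh11 of that list were below the filter. With U0126 against FGF2 6 fibroblast markers were lower and 1 higher (4 and 0 without replicate 2 of FGF2), with sums of 15678 and 15687 inside the range of FGF2 alone. Of the pericyte and smooth muscle markers 3 were higher and 1 lower (1 and 1 with median centring). Their sums were 16166 and 16133, above those of FGF2 and vehicle and again mostly Acta2 and Tagln. In that comparison 10.5% of all genes were lower and 11.6% higher. Against vehicle 17 of the 21 fibroblast markers were lower with FGF2 and U0126 and 2 higher, with a median of -0.87. Of the 10 pericyte and smooth muscle markers 3 were lower and 2 higher, where 15% of all genes were lower and 16.7% higher. The part of these cell types in the results was not tested.

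Of 8 endothelial markers 5 were above the filter, and Pecam1, Cldn5 and Tek were below it. Their summed signal was 622 and 706 with FGF2, against 1869 and 1725 with vehicle, and the groups were far apart. Most of that sum was Slco1a4, an organic anion transporter gene, with 399.5 and 460.3 with FGF2, against 1666 and 1532 with vehicle. Slco1a4 fell by 1.92 ± 0.09 and the VEGF receptor gene Kdr fell by 1.72 ± 0.34, while the junction gene Esam rose by 1.84 ± 0.22. Of the 5 tested markers 2 fell, 1 rose and 2 were not called, with a median log2 change of 0.44. Of all genes 19% fell and 18.9% rose. The endothelial sum was 1052 and 956 with FGF2 and U0126 and 488 and 490 with FGF2 and SB202190. Oligodendrocyte lineage markers had sums of 6155 and 6426 with FGF2, against 4389 and 4512 with vehicle, nearly all from Olig1, Cnp and Olig2. Olig2 rose by 1.86 ± 0.08, Olig1 rose by 0.91 ± 0.06 and Cnp fell by 0.30 ± 0.06 (not called with median centring). Of 6 tested genes of that list 2 rose, 1 fell and 3 were not called, beside 18.9% and 19% of all genes. Their median log2 change was -0.32, and Mog, Mag and Mobp were below the filter. Neuron marker sums were 1958 and 2084 with FGF2, against 1725 and 1767 with vehicle, and microglia marker sums 479 and 457 with FGF2, against 531 and 664 with vehicle. Most of the neuron sum was Stmn2, at 1338 to 1970 over the 8 arrays. The part of these markers in the proteoglycan results was not tested.

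Mature astrocyte markers fell with FGF2 in 15 of 17 cases and rose in 2, with sums of 28292 and 29304, against 42659 and 42037 with vehicle, and with U0126 9 were higher and 2 lower than with FGF2. All 8 ependymal markers fell with FGF2, with sums of 1814 and 1775, against 4386 and 4530.1 with vehicle. With U0126 6 of these 8 were higher than with FGF2 and 0 lower, the direction in which Ogn and Prelp went and Lum did not. Of all genes 11.6% were higher with U0126 than with FGF2 and 10.5% lower. The summed signal of the 8 proteoglycan genes was 5637 and 6021 with FGF2, against 11535 and 11464 with vehicle. Whether the astrocyte and ependymal markers and the proteoglycan genes come from the same cells was not tested.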

How the data were processed

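Expression was measured in 8 RNA samples of mouse, 1 array each, in 4 groups of 2. The deposited table gives linear intensity values of 45101 probe sets, made by an algorithm that the sources used here do not name. A 2%-trimmed mean of 150.001 on every array shows that the authors scaled the arrays alike. No detection calls were used. Genes were named from the 34958 probe sets with 1 symbol in the platform annotation, while 932 had several and 9211 none. Values were taken to log2(value + 1.77), the constant being their 10th percentile, and quantile normalized, so folds of dim genes are understated. The probe set with the highest mean stood for its gene, and genes below the 40th percentile, a log2 value of 3.83, were left out. All 8 arrays entered 1 fit in limma 3.58.1 (R 4.3.3) with an intensity trend, which had 4 residual and 8.99 prior degrees of freedom. The p-values, two-sided, were adjusted with the Benjamini-Hochberg method over the 13174 genes tested, in each of 6 comparisons, and a call needs an adjusted p under 0.05. All probe sets were also fitted without a filter. The precision is limited by the number of arrays.

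The text names all 8 genes, up to 4 genes with the smallest p per gene list and comparison, all fibrillar collagens, and the 3 genes most like each member; some list genes outside this rule were named after their values were seen. Of 219 list genes 210 were matched. The members and the lists were chosen with earlier results of these data known. Neighbours and promoter windows came from RefSeq tables of GRCm38.p6. The fit was tested on simulated data. Alternatives were other normalizations, pseudocounts, filters, variance priors and uses of the probe sets, a replicate block, and each array left out in turn. The plots were made with matplotlib 3.10.9 in Python 3.11.15.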

Additional observations from a re-analysis of the deposited data

How the results depend on the processing

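Of the log2 changes of the 8 genes over all comparisons and alternatives, 991 kept their direction and side of the threshold, 51 lost a call, 3 gained a call and 5 changed sign. The falls of Ogn, Fmod, Prelp, Omd and Aspn with FGF2 kept their call in every alternative run (Aspn lay below the filter at the 60th percentile), and Dcn lost its call with the mean of its probe sets, at -0.17. Without the intensity trend 2 genes were called with U0126 against FGF2 and 5 with SB202190 against vehicle. With SB202190 against FGF2, 0 were called with median centring, no filter, every probe set or no trend, and 1 with only the arrays of the comparison, with the mean of probe sets, or without probe sets ending in _s_at or _x_at. Leaving out 1 array gave 6 calls with FGF2 against vehicle, 3 to 5 with U0126 against FGF2, 0 to 2 with SB202190 against FGF2, 6 to 7 and 5 to 8 for each against vehicle, and 4 to 5 between them. The changes that turned sign were never called: Bgn with FGF2 had 0.14 with median centring, and with 1 array left out Lum with FGF2 had -0.012 to 0.11, Bgn with FGF2 had -0.20 to 0.028, and between U0126 and SB202190 Bgn had -0.083 to 0.19 and Aspn had -0.11 to 0.62. The cause was not tested.

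Over all genes the calls of FGF2 against vehicle were 4991 of 13174, or 7516 of the 45101 probe sets fitted without a filter. Those of U0126 against FGF2 were 2916, or 1619 without the trend, 1782 with mean probe sets and 1849 and 1782 without replicate 1 or 2 of FGF2. Those of SB202190 against FGF2 were 398, or 235 with median centring, 0 without the trend, 170 with mean probe sets, 83 and 82 without replicate 1 or 2 of FGF2 and 97 without replicate 2 of FGF2 with SB202190. Those of U0126 against SB202190 were 2986, or 1735 without the trend, 1783 with mean probe sets and 1805 without replicate 2 of FGF2 with SB202190. Replicate numbers did not pair the samples: deviations of same-numbered arrays correlated at -0.03 to 0.03. With the replicate number as a block the same counts of the 8 genes were called, 6, 5, 2, 7, 8 and 5 in the order FGF2 against vehicle, U0126 and SB202190 against FGF2, each against vehicle, and U0126 against SB202190.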
